A study of Mus musculus with 12 samples.

Results

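The 10 genes described here form the core of the mammalian circadian clock. They are Clock and Arntl, Per1, Per2 and Per3, Cry1 and Cry2, Nr1d1 and Nr1d2, and Dbp, taken by symbol from a table of 23256 genes with the transcript of highest mean level standing for each gene. All 10 were measured in all 12 libraries, and all 10 passed the filter of a mean of at least 1 RPKM (reads per kilobase and M reads) that 13273 genes passed. The libraries hold polyadenylated RNA of the paraventricular nucleus (PVN), a hypothalamic nucleus of neuroendocrine and autonomic neurons, from adult male mice aged 18 to 20 weeks. The animals grew from zygotes of C57/Bl6:129S6/SvEvTac hybrid mice that were microinjected either with 9 microRNA mimics together in DPBS, at 0.11 ng/uL of each mimic and 1 ng/uL of the mixture (miR, replicates 1 to 6), or with the DPBS vehicle alone (PBS, replicates 7 to 12). Embryos of both groups were carried by CD1 surrogate dams, and the offspring were weaned on day 28 and kept in cycles of 12 h of light and 12 h of darkness. Tissue was a punch of 1.0 mm from 2 successive slices of each brain. The labels name no hour of collection and no litter, so p-values measure the spread between these animals, whatever they share.

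In the clock, the proteins CLOCK and BMAL1 (the product of Arntl) bind E-boxes in DNA as a pair and switch on the Per, Cry, Nr1d and Dbp genes. PER and CRY proteins return to the nucleus and stop the pair, while the nuclear receptors REV-ERB alpha and beta, made from Nr1d1 and Nr1d2, repress Arntl and other genes through ROR elements. DBP activates genes with D-boxes. Over a day Arntl transcripts run against those of Nr1d1, Nr1d2, Dbp and the Per genes, and Dbp and Nr1d1 swing widely. The master clock of the body is the suprachiasmatic nucleus, which lies ventral and anterior to the PVN, and most other tissues, the PVN among them, run clocks of their own.

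The windows below, each from 250 bases before to 50 after a transcription start in RefSeq (build GRCm38.p6, printed 5′ to 3′ on the gene's strand), show the elements on which the loop turns. The table lists 13 such windows for 9 of the 10 genes, and Per2 was not matched. Capitals mark the E-box CACGTG, the E-box variant CACGTT, the D-boxes TTATGTAA and TTATGCAA and the ROR element core TAGGTCA, searched on both strands, with no overlap between any of the matches.
Per1 (chr11:69098699-69098998, plus strand): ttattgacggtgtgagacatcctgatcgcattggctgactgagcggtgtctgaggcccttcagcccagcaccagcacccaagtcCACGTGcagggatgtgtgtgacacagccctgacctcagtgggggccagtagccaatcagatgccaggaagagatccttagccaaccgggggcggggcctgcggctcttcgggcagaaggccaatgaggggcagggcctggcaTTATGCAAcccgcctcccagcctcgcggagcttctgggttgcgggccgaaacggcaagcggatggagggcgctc
Per3 (chr4:151044616-151044915, minus strand): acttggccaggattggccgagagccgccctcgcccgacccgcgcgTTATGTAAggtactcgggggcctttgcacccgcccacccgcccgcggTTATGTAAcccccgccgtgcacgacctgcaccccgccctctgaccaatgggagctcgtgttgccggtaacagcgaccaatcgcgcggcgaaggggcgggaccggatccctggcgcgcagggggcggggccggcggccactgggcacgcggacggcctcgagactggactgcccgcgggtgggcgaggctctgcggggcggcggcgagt
Nr1d1 (chr11:98775328-98775627, minus strand): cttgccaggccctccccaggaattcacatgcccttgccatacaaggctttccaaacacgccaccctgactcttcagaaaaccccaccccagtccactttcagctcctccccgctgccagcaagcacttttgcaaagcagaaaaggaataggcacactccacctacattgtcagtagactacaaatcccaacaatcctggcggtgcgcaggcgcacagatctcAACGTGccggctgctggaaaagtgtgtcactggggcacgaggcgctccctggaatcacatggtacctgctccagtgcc
Arntl (chr7:113207261-113207560, plus strand): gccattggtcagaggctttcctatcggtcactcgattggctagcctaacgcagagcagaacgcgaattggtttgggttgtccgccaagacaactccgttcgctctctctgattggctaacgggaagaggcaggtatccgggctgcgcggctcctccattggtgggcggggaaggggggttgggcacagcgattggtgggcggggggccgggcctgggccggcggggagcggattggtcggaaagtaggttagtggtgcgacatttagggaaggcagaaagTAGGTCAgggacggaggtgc
Per1 held an E-box at -166 and a D-box (TTATGCAA) at -24 from its start, and Per3 held the D-box TTATGTAA at -205 and again at -158. Of 32851 promoters, 7.15% held CACGTG, 0.743% TTATGCAA and 0.938% TTATGTAA. Nr1d1 held the variant CACGTT on the other strand (AACGTG as printed) at -28, and this variant, which 4.68% of promoters held, was also found in Cry1 and Cry2. Cry1 held a CACGTG at -60 as well. The ROR element core lay at 31 in one window of Arntl, against 2.61% of promoters. The cyclic AMP response element TGACGTCA, which 1.79% of promoters held, was in none of the 13 windows, and the windows of Clock, Nr1d2 and Dbp held none of the motifs. A match is a description of letters, and binding was not measured.

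A second set of sequences concerns the injected mixture. The mature forms of 7 of the 9 microRNAs were searched. miR-375 and miR-698 were not analysed, and where the labels name no arm, the arm that carries the plain name was used. Sequences are from RefSeq, and capitals mark the seed (bases 2 to 8), through which a microRNA pairs with a messenger RNA.
mmu-miR-29c-3p: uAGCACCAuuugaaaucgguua
mmu-miR-30a-5p: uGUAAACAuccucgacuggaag
mmu-miR-30c-5p: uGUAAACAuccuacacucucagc
mmu-miR-32-5p: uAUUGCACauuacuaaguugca
mmu-miR-204-5p: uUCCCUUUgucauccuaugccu
mmu-miR-532-3p: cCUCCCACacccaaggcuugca
miR-30a and miR-30c share 1 seed. The complement of a seed (capitals) was found 13 times in the 3′ untranslated regions of 6 of the 10 members, counting the shared seed once, in transcripts of GENCODE M21. Examples for miR-29c, for the pair miR-30a and miR-30c and for miR-32 are shown, since their seeds matched more than 1 member.
Per1, miR-29c: catggagtcccTGGTGCTgcccc
Per3, miR-29c, first of 3: tttgtacagcaTGGTGCTtctct
Clock, miR-30a and miR-30c, first of 2: ttttttcatttTGTTTACaacac
Per2, miR-30a and miR-30c, second of 2: ttttgtgaatcTGTTTACaagat
Cry2, miR-30a and miR-30c: gtgcatgcatcTGTTTACactct
Per2, miR-32: accttcacccaGTGCAATatatt
A match to miR-29c stood in 13.8% of the 12334 genes with such a region, one to miR-30a and miR-30c in 15.1% and one to miR-32 in 7.05%. Cry2 also held a match to miR-32, Clock one to miR-204 (14.9% of genes) and Cry1 one to miR-532-3p (14.5% of genes). The seed of miR-193a-5p, matched by 8.16% of genes, had no match in a member. Arntl, Nr1d1, Nr1d2 and Dbp held no match. The share of all genes with a match to any of these seeds was not computed, so the count of members with a match has no background beside it. The mimics were given to the zygote, and mature microRNAs were not measured in these adult libraries.

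Depth ran from 22.8 to 45.2 M reads per library, which put between 423 reads (Arntl) and 5826 reads (Nr1d1) on a member in a library and held the counting error of any value to 4.86% or less. PBS replicates 8, 9, 10 and 12 stood apart from the other 8 libraries. In these 4 the nuclear noncoding RNA Meg3 measured 158 to 316 RPKM, against 49.9 to 68.1 RPKM in the other 8. Transcripts rich in G and C were also read at higher levels in them, with a slope of 0.07 to 0.14 on the log2 scale per 10 percentage points of GC content, against -0.16 to 0.05 in the other libraries. The group difference of a gene on the log2 scale fell with the GC content of its transcript (Spearman's rho = -0.636 over 13004 genes, a description, since genes are not independent). The members span much of that range, from 41.8% GC in Nr1d2 and 42.1% in Clock to 59.4% in Per1 and 61.6% in Dbp, where the median tested gene had 50.6%. The differences of the members are therefore given also without those 4 libraries and with every library corrected for its mean deviation in 20 bins of GC content, a correction added after the data had been seen. Markers of the PVN were present: Sim1, a transcription factor of PVN neurons, measured 5.08 to 11.3 RPKM and Oxt, which encodes oxytocin, 1295 to 3983 RPKM. Some markers varied widely, of the PVN and of other tissue, and others did not. The PVN marker Avp measured 372 to 1564 RPKM, and the astrocyte marker Slc1a3 177 to 239 RPKM. The thalamic marker Tcf7l2 measured 2.53 RPKM in miR replicate 6 and 40.2 RPKM in miR replicate 3. The oligodendrocyte gene Mbp measured 184 RPKM in PBS replicate 11 and 767 RPKM in PBS replicate 7, the lowest and highest libraries of Dbp as well. The part of such tissue in the members' values was not tested. Lists were read for clock members and partners, immediate early genes, glucocorticoid-induced genes and nuclear RNAs. Others were for the PVN, suprachiasmatic nucleus, thalamus, astrocytes, oligodendrocytes, microglia, endothelium and choroid plexus. The summed levels of all 13 lists overlapped between the groups, and limma called 0 genes of any of them. It called 0 of all 13273 genes as well, and the groups did not overlap in only 0.482% of genes.

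In the order of the 10 members by level, only 2 neighbouring steps had ranges that did not overlap, Nr1d1 above Dbp and Nr1d2 above Clock. Nr1d1 had the highest mean, 51.6 ± 5.01 RPKM (SD, n = 12), and its lowest library (44.5 RPKM) lay above the highest library of Dbp (37.1 RPKM). Dbp followed at 28.4 ± 5.77 RPKM and Cry2 at 27.2 ± 1.36 RPKM. These neighbours did not differ beyond their spread, with Dbp above Cry2 in 7 of 12 libraries. Nr1d2 came next at 22.8 ± 2.82 RPKM, and its range of 18.4 to 27.7 RPKM did not touch that of Clock, 9.79 to 14.2 RPKM. Below Clock (12.4 ± 1.48 RPKM) the ranges of neighbours overlapped throughout, with Per1 at 10.3 ± 1.65, Arntl at 8.86 ± 0.909, Cry1 at 6.88 ± 0.600, Per3 at 5.43 ± 0.843 and Per2 at 4.12 ± 0.502 RPKM. Per3 was nevertheless above Per2 in 12 of 12 libraries. The repressor genes of the Rev-erb pair thus stood above the activators Clock and Arntl, and Per2 was the lowest member.

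**Figure D1:**
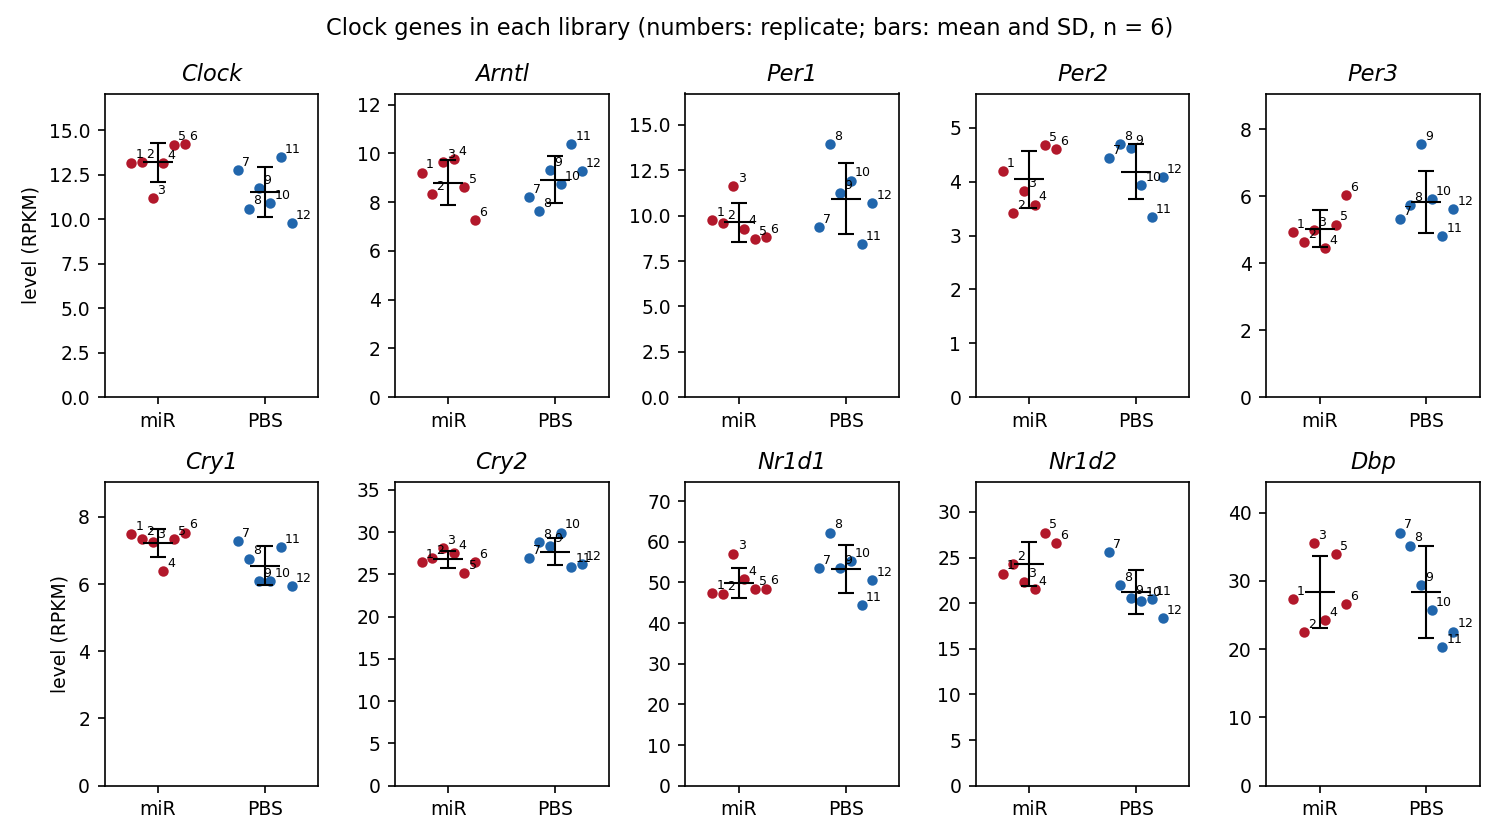
Levels in RPKM (vertical axes) of the 10 clock genes in each miR and PBS library, with points numbered by replicate and bars for the mean and SD of 6 libraries. The groups overlap in every panel, and Dbp, from 20.4 to 37.1 RPKM, has the largest ratio of highest to lowest library (1.82).

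The members differed in how much they varied between animals. Dbp had a standard deviation of 0.30 within groups on the log2 scale, place 775 from the most variable of 13273 genes, whose median was 0.125. Per1 followed with 0.20, Per3 with 0.17 and Per2 with 0.17. Cry2 was among the steadiest genes of the tissue, with 0.07 and place 12399. Clock, Arntl and Nr1d2 had 0.15 each, Nr1d1 0.13 and Cry1 0.10.

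The question of the design was whether animals from mimic-injected zygotes differ from vehicle animals. No member differed past the threshold: limma called 0 of the 10 members at an adjusted p below 0.05, where the share called over all 13273 genes was 0% (0 genes, with 2687 at an unadjusted p under 0.05). At an unadjusted p under 0.05 there were 3 members higher in miR (Clock, Nr1d2 and Cry1), against 9.12% of all genes, and 0 lower, against 11.1%. In direction 4 members were higher and 6 lower, with a median log2 difference of -0.03, where the median of all genes was 0.01. In none of the 10 did the groups fail to overlap, which 0.482% of all genes did.

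Other lists were read beside these 3 members. Of all genes, 9.12% were higher and 11.1% lower at an unadjusted p under 0.05 in limma, and 7015 of 13273 were higher in direction. All 7 astrocyte genes tested were higher in miR (3 of them at an unadjusted p under 0.05, none called), and their summed level was 888 to 1011 RPKM in miR and 732 to 931 RPKM in PBS. The 6 oligodendrocyte genes (0 at that level) and the 8 tested suprachiasmatic genes (1) were higher too. The 5 endothelial genes (2 at that level), the 4 nuclear RNAs (4) and the 4 thalamic genes (0) were lower. The remaining lists were split. Glucocorticoid-induced genes were 7 higher and 2 lower (1 at that level), and immediate early genes 2 higher and 7 lower (0). Microglial genes were 3 higher and 2 lower (1), PVN genes 4 and 3 (0), and choroid plexus genes 1 and 2 (0). The part of these cells and RNAs in the members' differences was not tested.

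Clock, the activator that pairs with BMAL1 (chromosome 5, 76641202 to 76733573 on the minus strand in mm9, as are all coordinates of levels), measured 11.2 RPKM in its lowest miR library, 13.2 RPKM at the median and 14.2 RPKM in the highest, and 9.79, 11.3 and 13.5 RPKM in PBS. In miR, 5 of 6 libraries lay above the PBS median, and replicate 3 alone lay below it. The log2 difference, miR minus PBS, was 0.19 (SE 0.08, adjusted p = 0.216 in limma). PBS replicates 7 and 11, at 12.8 and 13.5 RPKM, lay among the miR libraries, and replicates 8, 9, 10 and 12, at 9.79 to 11.7 RPKM, lay below 5 of the 6. Without those 4 the difference was 0.00, and with GC-corrected libraries 0.09.

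Arntl, which encodes BMAL1 (chromosome 7, 120350979 to 120457640, plus strand), measured 7.27, 8.91 and 9.76 RPKM (lowest, median and highest) in miR and 7.62, 9.01 and 10.4 RPKM in PBS. The ranges nearly coincided, with miR replicate 6 lowest and PBS replicate 11 highest of all 12. The log2 difference was -0.02, with a 95% confidence interval of -0.19 to 0.16 and an adjusted p of 0.916 in limma. It turned to 0.03 without miR replicate 6 or without PBS replicate 11, and it was -0.07 without PBS 8, 9, 10 and 12 and -0.06 with GC-corrected libraries.

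Among the repressors, Per1 (chromosome 11, 68913660 to 68923459, plus strand), the Per gene that also answers acute stimuli, measured 8.69, 9.45 and 11.6 RPKM in miR and 8.45, 10.98 and 13.9 RPKM in PBS. The highest 4 PBS libraries were replicates 8, 9, 10 and 12, and PBS replicate 11 was the lowest library of all. The log2 difference was -0.16 (adjusted p = 0.367 in limma). It was 0.10 without PBS 8, 9, 10 and 12 and -0.00 with GC-corrected libraries. Per2, whose protein is a scaffold of the repressor complex (chromosome 1, 93312559 to 93355905, minus strand), measured 3.41, 4.01 and 4.67 RPKM in miR and 3.34, 4.26 and 4.70 RPKM in PBS. The log2 difference was -0.04 (adjusted p = 0.798 in limma). Its groups covered nearly the same range, and the sign turned without the 4 libraries (0.06) and with the GC correction (0.03). Per3, the third Per gene (chromosome 4, 150377764 to 150418731, minus strand), measured 4.44, 4.96 and 6.04 RPKM in miR and 4.798, 5.68 and 7.55 RPKM in PBS. In miR, 5 of 6 libraries lay below the PBS median, and PBS replicate 9 was highest. The log2 difference of -0.19 had an adjusted p of 0.270 in limma, and it was -0.15 with GC-corrected libraries. Without PBS 8, 9, 10 and 12 Per3 differed by -0.01, and with the score of nuclear RNAs as a covariate its sign turned (0.03).

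Cry1, the stronger repressor of the cryptochrome pair (chromosome 10, 84594445 to 84647799, minus strand), measured 6.39, 7.34 and 7.53 RPKM in miR and 5.94, 6.43 and 7.29 RPKM in PBS. In miR 5 of 6 libraries lay between 7.25 and 7.53 RPKM, above 5 of the 6 PBS libraries, and replicate 4 lay apart at 6.39 RPKM. Cry1 differed by 0.13 on the log2 scale (SE 0.06, adjusted p = 0.245 in limma). Without PBS 8, 9, 10 and 12 the difference of Cry1 was 0.00. It was 0.17 with GC-corrected libraries, where Cry1 was the 1 member at an unadjusted p under 0.05 (0.0231), and no member was lower at that level, against 5.66% of genes higher and 6.74% lower. Cry2 (chromosome 2, 92243804 to 92274226, minus strand) measured 25.2, 26.7 and 28.1 RPKM in miR and 25.9, 27.6 and 29.9 RPKM in PBS. Its log2 difference of -0.05 had a 95% confidence interval of -0.14 to 0.05, the narrowest of the 10, and its sign turned without the 4 libraries (0.02) and with the GC correction (0.04). Cry2 lies opposite D930015M05Rik over 23416 bases, and the strand used in counting is not stated, so reads of the 2 genes may have been mixed.

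Of the Rev-erb genes, Nr1d1 (chromosome 11, 98629249 to 98636556, minus strand) measured 47.2, 48.4 and 57.1 RPKM in miR and 44.5, 53.6 and 62.3 RPKM in PBS. In miR, 5 of 6 libraries lay between 47.2 and 50.8 RPKM, and replicate 3 reached 57.1 RPKM. The log2 difference was -0.09 (adjusted p = 0.474 in limma), and 0.03 both without the 4 libraries and with the GC correction. Nr1d2 (chromosome 14, 19036570 to 19071620, minus strand) measured 21.6, 23.8 and 27.7 RPKM in miR and 18.4, 20.5 and 25.6 RPKM in PBS. Every one of the 6 miR libraries exceeded the median of PBS. The log2 difference was 0.19 (SE 0.08, adjusted p = 0.212 in limma), 0.08 without the 4 libraries and 0.09 with GC-corrected libraries. Without PBS replicate 7, the highest of its group, Nr1d2 passed at 0.25 (adjusted p = 0.0483 in limma), where 6.85% of all genes passed.

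Dbp, the activator of D-box genes and the output gene of the loop (chromosome 7, 52960617 to 52965573, plus strand), measured 22.5, 27.0 and 35.6 RPKM in miR and 20.4, 27.6 and 37.1 RPKM in PBS. High values stood in both groups, in PBS replicates 7 and 8 (37.1 and 35.2 RPKM) and miR replicates 3 and 5 (35.6 and 33.9 RPKM), and so did low ones, in PBS replicates 11 and 12 (20.4 and 22.6 RPKM) and miR replicate 2 (22.5 RPKM). The log2 difference of 0.01 had a 95% confidence interval of -0.31 to 0.33, so differences of either sign inside that interval were not excluded. Its sign turned without miR replicate 3 or 5 or without PBS replicate 10, 11 or 12. It was 0.02 without PBS 8, 9, 10 and 12 and 0.18 with GC-corrected libraries (adjusted p = 0.610 in limma). Dbp overlaps Sphk2 on the other strand by 740 bases.

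**Figure D2:**
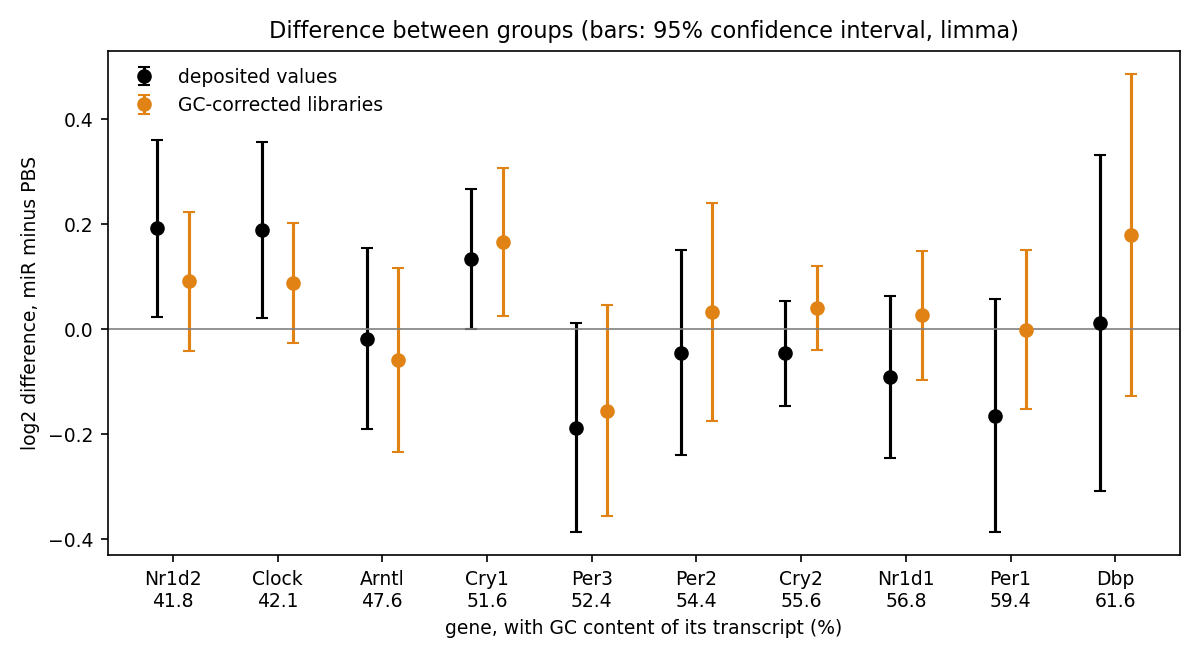
Log2 difference of each clock gene, miR minus PBS, with its 95% confidence interval from limma, for deposited values (black) and GC-corrected libraries (orange), genes ordered by the GC content of their transcripts. In the deposited values the genes poorest in GC, Nr1d2 and Clock, lie highest at 0.19, and with the correction they lie at 0.09.

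Calls among the members rested on which PBS libraries were used. Without PBS replicates 7 and 11, limma called 4 members, with Clock (0.28, adjusted p = 0.0147), Cry1 (0.20, adjusted p = 0.0274) and Nr1d2 (0.25, adjusted p = 0.0318) higher in miR and Per1 (-0.30, adjusted p = 0.0296) lower, where 23.4% of all genes were called. The 4 PBS libraries then left were those of high Meg3 and steep GC slope, and their part in these differences cannot be told apart from the group. With weights on libraries Clock and Per1 were called, where 22.8% of all genes were. The nuclear RNA score (the mean standardized value of Meg3, Miat, Snhg11 and Malat1) was also used as a covariate. With it, or without PBS replicates 8, 9, 10 and 12, limma called 0 members and none had an unadjusted p under 0.05. Of all 13273 genes limma likewise called 0 in both settings, and only 157 and 99 genes had an unadjusted p under 0.05. Fewer cells of a type and less RNA per cell cannot be told apart in punches of tissue.

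Read beside the seed matches, the members showed no common direction. Per1 and Per3, which hold matches to miR-29c, differed by -0.16 and -0.19. As given above, neither difference kept its size without PBS 8, 9, 10 and 12. Cry1, with a match to miR-532-3p, differed by 0.13. Of the 3 members with a match to miR-30a and miR-30c, Clock differed by 0.19, Per2 by -0.04 and Cry2 by -0.05. Of the 4 members without any match, Nr1d2 and Dbp were higher and Arntl and Nr1d1 lower. No test was made over so few genes.

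Other genes of the clock, from a list of 24 partners of which 23 passed the filter, gave no call either. In limma 0 of the 23 were called (against 0% of all genes), 15 were higher and 8 lower in miR, and their median log2 difference was 0.06, where that of all genes was 0.01. At an unadjusted p under 0.05 were 3 higher, against 9.12% of all genes, and 1 lower, against 11.1%. Fbxl21, an F-box protein that acts on CRY stability, measured 6.26, 6.91 and 7.28 RPKM in miR and 4.66, 5.497 and 7.24 RPKM in PBS. Its miR libraries lay above all PBS libraries but replicate 11. Fbxl21 differed by 0.27 on the log2 scale (SE 0.08, adjusted p = 0.174 in limma), by 0.23 with GC-corrected libraries and by 0.10 without PBS 8, 9, 10 and 12. Without PBS replicate 11 it passed at 0.34 (adjusted p = 0.0342 in limma), where 3.23% of all genes passed. Arntl2, the paralog of Arntl, measured 1.79, 2.21 and 2.57 RPKM in miR and 2.45, 2.63 and 3.98 RPKM in PBS. Its log2 difference was -0.32 (adjusted p = 0.187 in limma), -0.34 with GC-corrected libraries and -0.19 without the 4 libraries. Rorb, a nuclear receptor that acts at ROR elements against the Rev-erbs, differed by 0.21 and Cipc, which encodes an inhibitor of CLOCK, by 0.09, with adjusted p = 0.224 and 0.217 in limma. With GC-corrected libraries these were 0.11 and 0.07, and without the 4 libraries 0.11 and 0.07. Timeless, at 0.635 to 1.013 RPKM, was below the filter.

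Because the punch lies near the suprachiasmatic nucleus, 9 of its markers were read beside the clock genes. Vip, which encodes a peptide of that nucleus and of cortical neurons, measured 21.7 RPKM in miR replicate 5 and 0.0431 to 0.833 RPKM in the other 11 libraries. Of the 9 markers, 7 were highest in miR replicate 5, among them Grp, Nms, Vipr2, Six6 and Lhx1. The summed level of the list was 35.2 to 78.8 RPKM in miR and 30.5 to 41.0 RPKM in PBS. In that library Nr1d2 was the highest of all 12 (27.7 RPKM), Dbp stood at 33.9 RPKM, Per2 at 4.67 RPKM and Cry2 was the lowest of all 12 (25.2 RPKM). Without miR replicate 5 the differences of Nr1d2 and Dbp were 0.15 and -0.04. The part of this tissue in the members' values was not tested further.

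The second question was how the members moved together over animals, since the order of clock genes marks the time of day. All 45 pairs were correlated over the 12 libraries (Pearson's r on log2 values, permutation p from 100000 resamples, adjusted over the 45 pairs). In the deposited values 5 pairs passed an adjusted p of 0.05. The share that would pass among pairs of all genes was not computed. Per1 rose and fell with Nr1d1 (r = 0.88, permutation p = 0.00022, adjusted p = 0.0099, Spearman's rho = 0.78 with permutation p = 0.00393 and adjusted p = 0.0318) and with Cry2 (r = 0.80, permutation p = 0.00169, adjusted p = 0.0199, rho = 0.81 with permutation p = 0.00216 and adjusted p = 0.0318). Cry2 went with Nr1d1 (r = 0.77, permutation p = 0.00334, adjusted p = 0.0301, rho = 0.78 with permutation p = 0.00424 and adjusted p = 0.0318). Cry1 went with Nr1d2 (r = 0.81, permutation p = 0.00177, adjusted p = 0.0199, rho = 0.90 with permutation p = 0.00017 and adjusted p = 0.00765), and Clock ran against Per1 (r = -0.83, permutation p = 0.00098, adjusted p = 0.0199, rho = -0.85 with permutation p = 0.00117 and adjusted p = 0.0263).

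Of these 5 pairs, 3 join the transcripts of Per1, Cry2 and Nr1d1, with 55.6% to 59.4% GC. The opposed pair sets Clock, with 42.1% GC, against Per1, with 59.4%. Cry1 and Nr1d2 hold 51.6% and 41.8%. Within miR (n = 6, exact) r was 0.79 for Per1 with Nr1d1, 0.77 for Per1 with Cry2, 0.70 for Cry2 with Nr1d1, 0.63 for Cry1 with Nr1d2 and -0.99 for Clock with Per1. Within PBS (n = 6, exact) it was 0.89, 0.78, 0.76, 0.77 and -0.73 in the same order. Without PBS 8, 9, 10 and 12 (n = 8, exact) it was 0.76, 0.79, 0.71, 0.57 and -0.92. All 5 signs held, but no pair passed the adjustment in these smaller sets or in values minus their group mean. Leaving out the 2 libraries farthest from the median of the first gene of each pair gave 0.76, 0.72, 0.71, 0.68 and -0.96, of which Clock with Per1 passed (adjusted p = 0.00472). With each library left out in turn, Per1 with Nr1d1, Per1 with Cry2 and Clock with Per1 passed every time. Cry1 with Nr1d2 missed the threshold without PBS replicate 12 (r = 0.74, permutation test, adjusted p = 0.0649). Cry2 with Nr1d1 missed it without miR replicate 1 or 6 or PBS replicate 8, 9 or 11 (r from 0.74 to 0.77, permutation test, adjusted p from 0.0501 to 0.0635). With GC-corrected libraries none of the 5 passed, and r was 0.60, 0.24, 0.46, 0.62 and -0.49.

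The members' own relation to the library measures was computed in 50 relations (10 members, 5 measures). Over the 12 libraries 5 passed an adjusted p of 0.05. The share of all genes that would pass was not computed. The GC slope was itself fitted over the tested genes, so genes poor or rich in GC tend to follow it by construction. Of the tested genes 9.80% had a lower GC content than Clock, 8.90% than Nr1d2 and 93.2% than Per1. Clock followed the GC slope with r = -0.93 (permutation p = 1e-05, the smallest that can be given, adjusted p = 0.0005, rho = -0.96 with permutation p = 2e-05 and adjusted p = 0.001). It kept r = -0.92 without the 2 libraries of most extreme slope and -0.83 without PBS 8, 9, 10 and 12. Per1 followed the slope with r = 0.82 (permutation p = 0.00099, adjusted p = 0.0187, rho = 0.82 with permutation p = 0.00185 and adjusted p = 0.0308), 0.85 without the farthest 2 and 0.65 without the 4. Nr1d2 followed it with r = -0.81 (permutation p = 0.00171, adjusted p = 0.0214, rho = -0.78 with permutation p = 0.00407 and adjusted p = 0.0509), -0.68 without the farthest 2 and -0.68 without the 4.

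Per3 and Cry1 went with the nuclear RNA score. For Per3 r was 0.83 (permutation p = 0.00112, adjusted p = 0.0187, rho = 0.66 with permutation p = 0.0223 and adjusted p = 0.1199), and for Cry1 -0.81 (permutation p = 0.0026, adjusted p = 0.026, rho = -0.64 with permutation p = 0.0288 and adjusted p = 0.1199). Leaving out the 2 libraries of most extreme score gave 0.71 and -0.65. Without the 4 PBS libraries that set the score the values were 0.55 and 0.23, so the relation of Cry1 rested on them. Cry1 also had r = -0.75 with the GC slope (permutation p = 0.00686, adjusted p = 0.0572, rho = -0.83 with permutation p = 0.00148 and adjusted p = 0.0308), -0.68 without the farthest 2 and -0.40 without the 4. No member was related to sequencing depth, to the score of immediate early genes or to that of suprachiasmatic markers past the threshold, which does not show that they are unrelated. Dbp had r = 0.09 with the GC slope and -0.10 with the nuclear score.

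**Figure D3:**
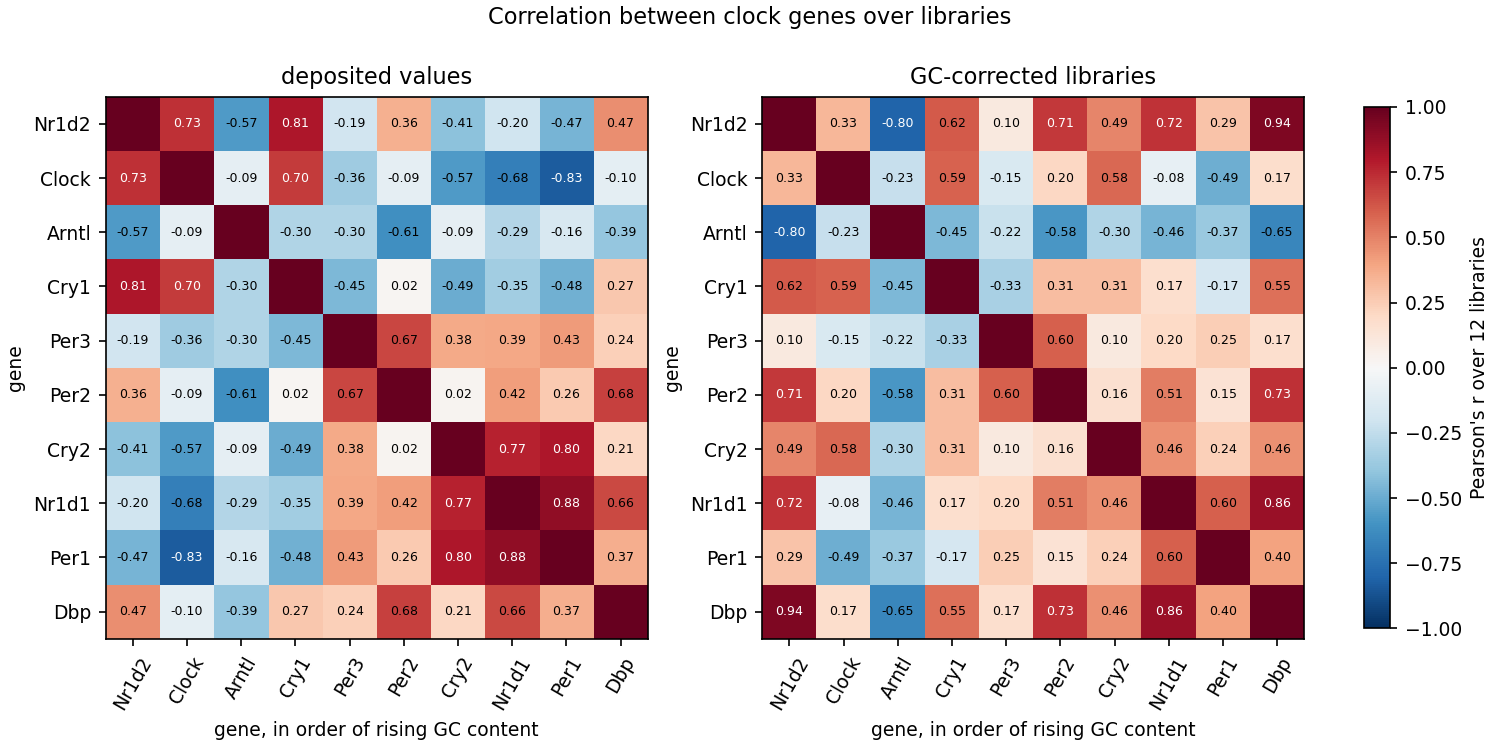
Pearson's r over 12 libraries for all pairs of clock genes, with genes in order of rising GC content of their transcripts, in deposited values (left) and GC-corrected libraries (right). Blocks of like sign at the corners of the left panel, such as 0.88 for Per1 with Nr1d1, are weaker on the right, where Nr1d2 with Dbp reaches 0.94.

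With the GC correction another 3 of the 45 pairs passed, all of them among Dbp, Nr1d1, Nr1d2 and Arntl. Other pairs of these 4 genes, which the loop also sets in or out of phase, did not pass in the permutation test. Arntl with Nr1d1 had r = -0.46 (adjusted p = 0.302, and r = 0.11 within miR), and Arntl with Dbp -0.65 (adjusted p = 0.140). Nr1d1 with Nr1d2 had r = 0.72 (adjusted p = 0.0762, and r = 0.27 within miR). Nr1d2 and Dbp had r = 0.94 (permutation p = 2e-05, adjusted p = 0.0009, rho = 0.88 with permutation p = 0.00029 and adjusted p = 0.0131). The value was 0.84 within miR and 0.975 within PBS (n = 6 each, exact), 0.93 without PBS 8, 9, 10 and 12 (n = 8, exact, adjusted p = 0.0335) and 0.87 without the 2 farthest libraries, and it stayed between 0.91 and 0.96 with each library left out. In deposited values it was 0.47. Nr1d1 and Dbp had r = 0.86 (permutation p = 0.00037, adjusted p = 0.00833, rho = 0.81 with permutation p = 0.00231 and adjusted p = 0.0347), with 0.68 within miR and 0.97 within PBS (n = 6 each, exact), 0.86 without the 4 libraries (n = 8, exact, adjusted p = 0.0982) and 0.71 without the 2 farthest (permutation test, adjusted p = 0.212), both short of the threshold. In deposited values it was 0.66. Arntl ran against Nr1d2 with r = -0.80 (permutation p = 0.00168, adjusted p = 0.0252, rho = -0.84 with permutation p = 0.00126 and adjusted p = 0.0284), with -0.78 within miR and -0.89 within PBS (n = 6 each, exact), -0.80 without the 4 libraries (n = 8, exact, adjusted p = 0.109, so the call was lost) and -0.85 without the 2 farthest (permutation test, adjusted p = 0.0398). Leaving out miR replicate 6 or PBS replicate 10 or 11 ended this call (adjusted p = 0.0603, 0.0507 and 0.0754), at r between -0.80 and -0.76. In deposited values it was -0.57. The correction was added with the data in view, and these pairs were read as values of an alternative.

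Per library the pattern of these 4 genes can be followed directly. In GC-corrected values Dbp was highest in miR replicate 5 (0.44 above the mean of all libraries on the log2 scale) and PBS replicate 7 (0.36), then miR replicates 3 (0.22) and 6 (0.22) and PBS replicate 8 (0.18), and lowest in PBS replicates 11 (-0.45) and 12 (-0.44) and miR replicate 4 (-0.20). Nr1d2 was highest in miR replicate 5 and PBS replicate 7 (0.16 each) and lowest in PBS replicates 11 (-0.20) and 12 (-0.17). Arntl was lowest in miR replicate 6 (-0.30), PBS replicate 8 (-0.17) and miR replicate 2 (-0.11), and highest in PBS replicate 11 (0.18). Animals with high and with low values of the output genes thus occurred in both groups. The ratio of Dbp to Arntl in deposited values lay between 1.31 and 1.98 in miR and between 0.97 and 2.21 in PBS on the log2 scale. PBS replicate 11 had the lowest ratio and PBS replicates 7 and 8 the highest (2.18 and 2.21). The hour at which each brain was taken is not named, so these values were not turned into times.

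**Figure D4:**
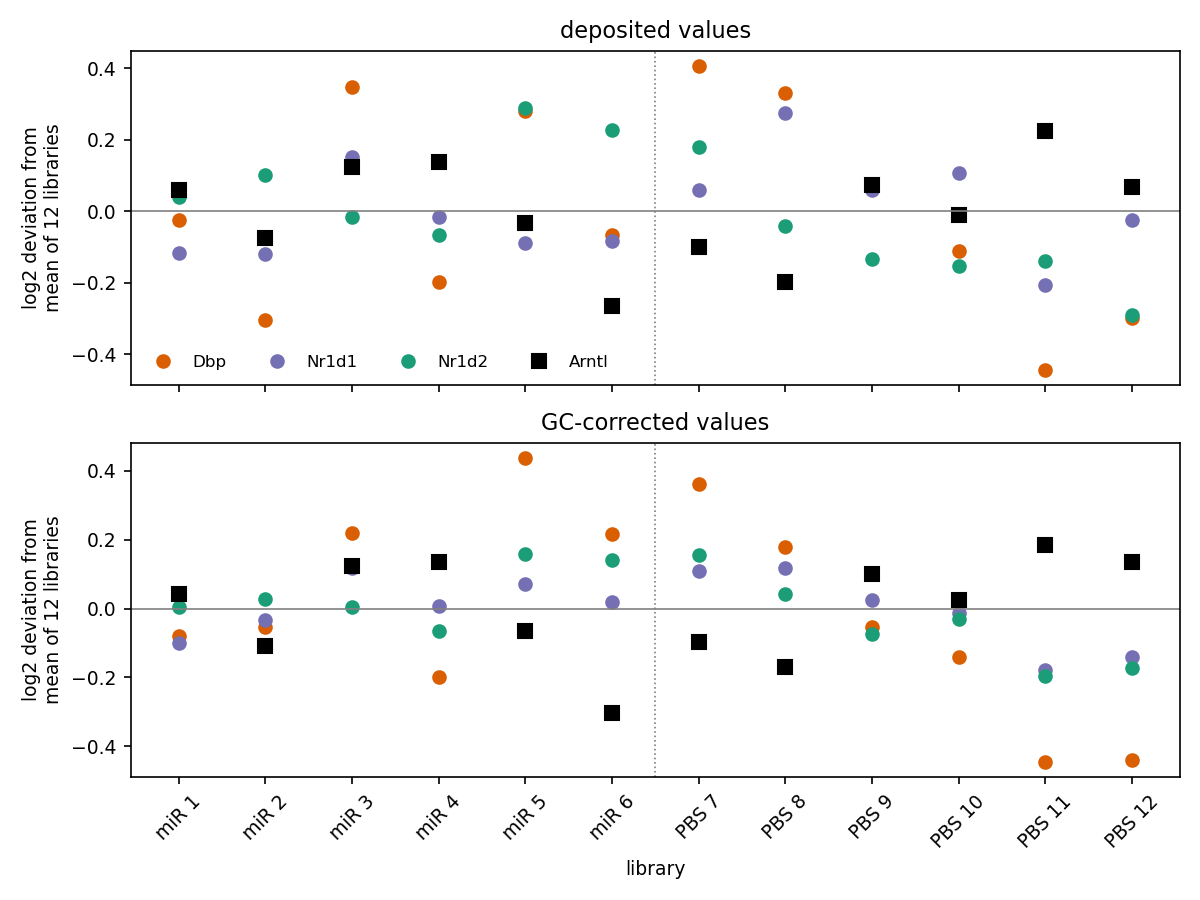
Deviation of Dbp, Nr1d1, Nr1d2 and Arntl from their mean over 12 libraries (log2 scale) in each library, in deposited (top) and GC-corrected values (bottom). In the lower panel Dbp, Nr1d1 and Nr1d2 lie on the same side of 0 in 8 of 12 libraries, and Arntl lies opposite in libraries such as PBS 11 and PBS 7.

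The genes most like each member were then read from the whole table, by Pearson's r of values minus their group mean over the 12 libraries, as a description with no p. In deposited values most members stood nearest to genes outside the clock. For Clock these were Calcrl (0.97), Usp9x (0.96) and Atl3 (0.96), with 2310061I04Rik lowest (-0.96). For Per1 they were Zfp513 (0.93), Snx11 (0.92) and Psmd3 (0.91), with Zfp322a lowest (-0.94). For Per3 they were Memo1 (0.97), Lig3 (0.95) and Echdc2 (0.94), with Mcart1 lowest (-0.92). Other members came near the top of a few lists. Per1 was the fourth gene of 13272 in the list of Nr1d1 (0.87), behind 9930021D14Rik (0.89), Sphk2 (0.89) and Rapgef3 (0.88), and Per3 and Dbp were at places 32 and 33 in that of Per2 (0.70 and 0.69), which E2f5 (0.88), Fgfbp3 (0.86) and Rbpms (0.85) led.

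For Cry1 the nearest were Rcn2 (0.92), Gnai3 (0.91) and Gulp1 (0.90), with Cyb561d1 lowest (-0.91), and for Cry2 they were Pmpca (0.92), Pigc (0.91) and Ube3b (0.89), with Faf1 lowest (-0.90). The list of Nr1d2 was led by Zfp191 (0.95), Strn3 (0.92) and C330007P06Rik (0.90), with Tnpo2 lowest (-0.91). That of Dbp was led by Myo1d (0.86), Id3 (0.85) and Ankra2 (0.82), with D130017N08Rik lowest (-0.91). The lowest in the lists of Per2 and Nr1d1 were Umps (-0.88) and Ncoa4 (-0.92). With GC-corrected libraries clock genes took the first places of several lists among 13003 genes. The 2 genes nearest to Dbp were Nr1d2 (0.93) and Nr1d1 (0.87), and Dbp was the nearest gene both of Nr1d1 and of Nr1d2. The second nearest of Nr1d1 was Bhlhe40 (0.83), a repressor gene of the clock, and the nearest of Per2 was Wee1 (0.88), a cell cycle kinase gene with E-boxes in its promoter. In the list of Nr1d2, Arntl stood at place 12987 of 13003 (-0.80).

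Arntl stood nearest to Hsph1 (0.89), Cldn5 (0.88) and BC048355 (0.85), and farthest from Gstt2 (-0.89). Hsph1 encodes a heat shock protein of the HSP110 family, and Cldn5 the claudin of brain endothelium. The summed level of 5 endothelial markers was 25.5 to 33.9 RPKM in miR and 29.6 to 39.5 RPKM in PBS, highest in PBS replicate 11, where Arntl was also highest, and the part of these cells was not tested. Hsph1 measured 94.3 RPKM in PBS replicate 11 and 91.3 RPKM in miR replicate 4, where Arntl was at 10.4 and 9.76 RPKM, and 68.6 RPKM in miR replicate 6 and 71.2 RPKM in PBS replicate 8, where Arntl was at 7.27 and 7.62 RPKM. Cirbp, the cold-inducible RNA-binding protein gene, named after its value had been seen, was second from the lowest of 13272 genes in the list of Arntl (-0.87). It measured 81.8 RPKM in PBS replicate 8, 75.1 RPKM in miR replicate 6, 61.7 RPKM in PBS replicate 11 and 59.9 RPKM in miR replicate 4. Not every library followed this order. In PBS replicates 9 and 12 Arntl lay 0.07 above its mean on the log2 scale, and Hsph1 lay below its own (-0.06 and -0.05). Cirbp was at -0.03 and 0.08 in these. Transcripts of heat shock and cold-inducible proteins are known to follow body temperature, and its part in the level of Arntl was not tested. Hsph1 and Cldn5 remained among the 3 nearest to Arntl with GC-corrected libraries (0.90 each), behind Abcg1 (0.92).

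**Figure D5:**
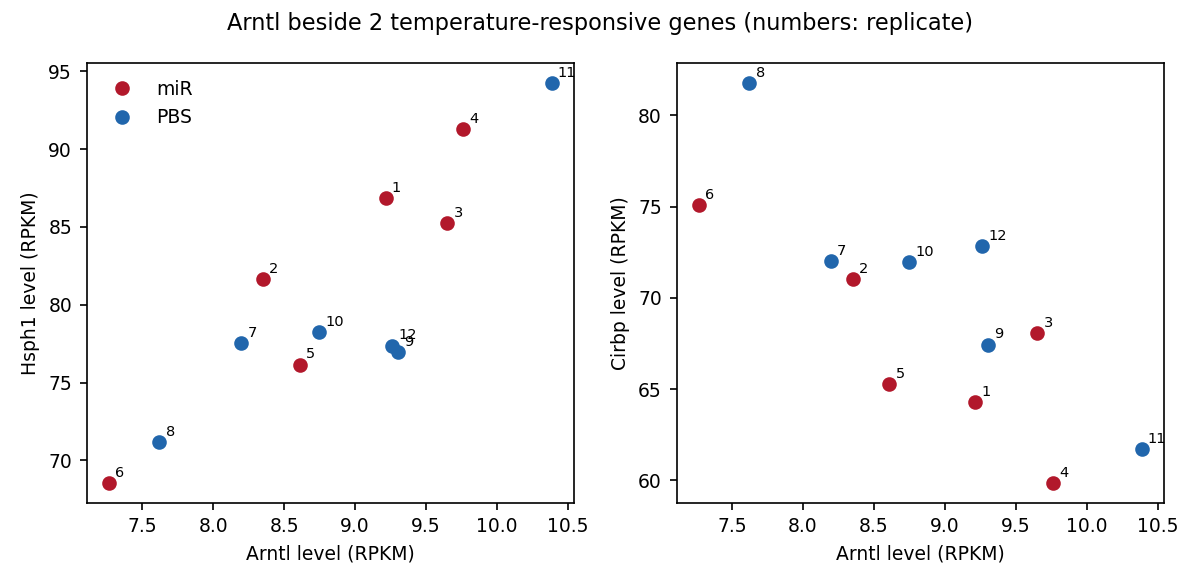
Level of Hsph1 (left) and Cirbp (right) against that of Arntl, all in RPKM, in the 12 libraries, numbered by replicate. Hsph1 is high and Cirbp low in PBS 11 and miR 4, where Arntl is high, and the reverse holds in miR 6 and PBS 8. PBS 12 departs from this, with Arntl and Cirbp above and Hsph1 below their means on the log2 scale.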

How the data were processed

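Poly-A libraries were made with a stranded kit from 250 ng of total RNA and run as single-end reads on 2 HiSeq2000 lanes, per the labels' protocols and the series design. The authors deposited RPKM values for 30399 RefSeq transcripts. The submitters' processing notes name mm9 and edgeR without their part in these values. The aligner, counter and scaling were not given in the sources used here.

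Each gene was represented by its transcript of highest mean (23256 genes). RefSeq accessions named 868 of the 913 transcripts that lacked a symbol. Depth came from the steps in low values of 971 olfactory receptor transcripts. The 13273 genes at or above a mean of 1 RPKM were tested on log2(RPKM + 0.5), a scale that understates changes of low genes, in limma 3.58.1 (R 4.3.3) with a variance trend and an adjusted p threshold of 0.05 (Benjamini-Hochberg, 2-sided). Correlations were tested with 100000 permutations, or with all permutations for fewer than 10 libraries (scipy 1.17.1, numpy 2.4.6 and pandas 2.3.3 in Python 3.11.15), and figures drawn with matplotlib 3.10.9. Scripts were tested on simulated data.

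The members, lists and tests were chosen with earlier results of these data known. The text names all members, partners at an unadjusted p under 0.05, and for each member the 3 genes of highest and the 1 of lowest correlation. Alternatives changed the pseudocount (0.1 or 1 RPKM), the filter (none or 5 RPKM), the scaling (median or quantile), the variance model (no trend, robust, library weights), the threshold (0.1) and the value of a gene (mean over transcripts), added covariates (nuclear RNAs, immediate early genes), or left out PBS 7 and 11, PBS 8, 9, 10 and 12 or each library. A correction for GC content was added after the data were seen. Transcript sequences for GC content and untranslated regions were those of GENCODE M21 (98% of tested genes), and promoters and microRNAs those of RefSeq (GRCm38.p6). Ciart and Cipc stood under older symbols.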

Additional observations from a re-analysis of the deposited data

Results flagged for a closer look

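Of 64 groups of 6 libraries checked for a library that lies apart from the rest (a gap to its nearest neighbour that takes up most of the group's range, by Dixon's test), 10 were marked, where chance alone marks about 1 in 20 groups. Among the clock genes there were 4, all in miR. Clock was low in miR replicate 3, at 11.2 RPKM against 13.2 to 14.2 RPKM in the other 5. In the same library Per1 was high, at 11.6 RPKM against 8.69 to 9.75 RPKM, and Nr1d1 was high, at 57.1 RPKM against 47.2 to 50.8 RPKM. This library had the highest GC slope of the miR group (0.05 on the log2 scale per 10 percentage points), and the part of that slope was not tested for this library. Cry1 was low in miR replicate 4, at 6.39 RPKM against 7.25 to 7.53 RPKM. The others were Fbxl21 in PBS replicate 11 (7.24 RPKM against 4.66 to 5.54 RPKM), Vip in miR replicate 5 (21.7 RPKM against 0.164 to 0.396 RPKM) and in PBS replicate 10 (0.833 RPKM against 0.0431 to 0.316 RPKM), Prok2 in PBS replicate 7 (1.62 RPKM against 0.420 to 0.582 RPKM), Hsph1 in PBS replicate 11 (94.3 RPKM against 71.2 to 78.2 RPKM) and Meg3 in miR replicate 6 (68.1 RPKM against 49.9 to 55.1 RPKM).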

How the results depend on the processing

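Calls between the groups moved with the PBS libraries. Over all genes limma called 0, but 3025 with library weights and 3107 without PBS 7 and 11, of the members 2 and 4, and of the partners 6 and 5. With each library left out the counts ran from 0 to 909 (all genes), 0 to 1 (members) and 0 to 1 (partners). No paired analysis was possible because the groups share no replicate number. Of the 45 pairs 5 were called, but 0 within miR, within PBS, in values minus group means or without PBS 8, 9, 10 and 12. The count was 3 without the 2 farthest libraries, with median scaling, with quantile normalization and with the GC correction, and 4 to 8 with each library left out. The cause was not tested, other than that some of these sets hold fewer libraries. With the 6 libraries of miR or of PBS a single pair could not pass on its own.

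Signs turned for small differences (log2, miR minus PBS). Arntl was 0.000223 with quantile normalization, 0.0523 with weights, 0.00923 without PBS 7 and 11, and -0.0588 to 0.0338 with each library left out. Dbp was -0.000593 with quantile normalization, -0.0439 with weights, -0.0410 with the nuclear RNA covariate, and -0.0749 to 0.0949 with each library left out. Without PBS 8, 9, 10 and 12, Per1 was 0.103, Per2 0.0553, Cry2 0.0203 and Nr1d1 0.0278. With the GC correction Per2 was 0.0329, Cry2 0.0408 and Nr1d1 0.0270. With the nuclear covariate Per2 was 0.0393 and Per3 0.0275. Depth gave each member 423 or more reads per library, a counting error of 4.86% or less.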
